A study of Homo sapiens with 21 samples.

Results

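The genes of the MYC transcription factor family and of its dimerisation network were examined for binding of the receptor tyrosine kinase FGFR1, for FOXA1 and for active chromatin in CAMA1 cells. The set held 9 genes: the MYC paralogues MYC, MYCN and MYCL, their shared partner MAX, the MAX-binding repressors MXD1, MXD4, MXI1 and MNT, and the MAX-like factor MLX. All 9 were found among the 19970 protein-coding genes annotated on chromosomes 1 to 22 and X. Peaks were taken if they lay inside one of these genes or within 50 kb of it, which selected 669 of 702826 listed peaks. The genes were chosen by name, with earlier results of these data known, and not by a threshold on these peaks.

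MYC, N-Myc and L-Myc are basic helix-loop-helix leucine zipper proteins that bind DNA as dimers with MAX, preferentially at E-box sequences, and promote transcription of genes for growth, metabolism and ribosome production. MXD1, MXD4, MXI1 and MNT also pair with MAX, recruit SIN3 co-repressor complexes to the same sequences and oppose MYC. MLX is the partner of the glucose-responsive factors MLXIP and MLXIPL and can also pair with some MXD proteins and MNT. In oestrogen receptor-positive breast cells MYC is a well-known target of both oestrogen and growth factor signalling.

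CAMA1, the cell line of every sample, is labelled as breast cancer with oestrogen receptor and with amplified FGFR1. Chromatin immunoprecipitation with sequencing was done with antibodies to FGFR1, to H3K27ac (acetylation found at active enhancers and promoters), to H3K4me3 (a promoter mark), to RNA polymerase II phosphorylated on serine 5 of its tail (Pol II S5P, found where transcription starts) and to FOXA1, a pioneer factor of luminal breast cells. FGFR1 was also mapped after control siRNA without a target (siNT) and after siRNA to FOXA1 (siFOXA1), with collection 72 h after transfection. The cells of all groups spent their last 48 h in medium lacking estradiol. There were 7 groups of 2 libraries and thus 14 peak lists. The 7 input samples were not analysed here. All data come from 1 cell line at a single oestrogen state, whether replicate libraries were separate cultures is not stated in the labels, and FOXA1 itself was not measured after siFOXA1.

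On the chromosomes used, FGFR1 lists of untransfected cells had 5341 and 13135 peaks, the siNT lists 6007 and 6594 and the siFOXA1 lists 4332 and 5056. The lists of the other groups held 12267 to 154358 peaks. FGFR1 replicate 1 was listed down to a −log10 q of 2.26 and replicate 2 down to 1.39. Peaks at MYC in replicate 2 alone had −log10 q of 16.7, 10.5, 3.7 and 6.5, above both limits. With backgrounds of 3.4 and 3.5 fragments, the strongest peak near a gene end had 40 and 71 fragments at MYC and 42 and 67 at MAX. It had 18 and 41 at MNT and 18 and 26 at MXD4, while MYCL had such a peak in replicate 1 alone. Why the 2 lists differ was not tested. Peak names inside the FGFR1 replicate 1 list carry another replicate number, and those inside the FOXA1 lists read FOXA2; the labels were followed. Fold enrichment is the authors' own value per peak. For the groups other than Pol II S5P it was the summit pileup over a background that was constant along the genome. Extra gene copies in the line are therefore not corrected for in these groups. How the Pol II S5P folds were scaled was not established. Fold enrichment is used here only within a list, with the percentile of a peak among all peaks of its list. Of 5 luminal marker genes, KRT8, KRT18, EPCAM and GATA3 had both H3K4me3 and H3K27ac at a gene end and ESR1 had H3K27ac alone. Of 5 basal or mesenchymal markers 3 had H3K27ac and 2 had H3K4me3 (SNAI2 and ZEB1 both, TP63 H3K27ac alone, KRT5 and KRT14 neither). Of 3 blood markers 1 had H3K27ac and 2 had H3K4me3 (SPI1 both, CD3E H3K4me3 alone, PTPRC neither).

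A gene end was counted as occupied when a region found in both lists of a group lay within 1 kb of it. All 9 genes carried H3K4me3 at an end, against 66.6% of all genes, and all 9 carried H3K27ac, against 67.5%. At each gene the H3K4me3 lay at 1 end only. FGFR1 of both untransfected lists was found at 4 of 9 genes, MYC, MAX, MXD4 and MNT. The share over all genes was 19.9%, and it was 29.9% among genes with H3K4me3 at an end. Pol II S5P was at 4 of 9 (MYC, MXD1, MXD4 and MLX; 38.9% of all genes). FOXA1 was at 5 of 9 (MYC, MAX, MXD1, MXD4 and MNT; 32.3% of all genes). With so few genes these shares describe the set and were not tested.

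The overlap of FGFR1 with the other signals differed from gene to gene. Of the 4 members with Pol II S5P, 2 had FGFR1 (MYC and MXD4), and 47.4% of all genes with Pol II S5P did. Of the 4 members with FGFR1, 2 lacked Pol II S5P at an end (MAX and MNT), a combination seen at 7.49% of all genes with FGFR1. All 4 also had FOXA1 at an end, against 57.6% of all FGFR1 genes. FGFR1 was found at an end in exactly 1 untransfected list at MYCL (replicate 1) and MLX (replicate 2), against 21.6% of all genes. MXD1, MXI1 and MYCN had no FGFR1 peak at an end in either list. When only peaks with a −log10 q of at least 5 were kept, MXD4 and MNT dropped out and 2 of 9 members remained.

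**Figure D1:**
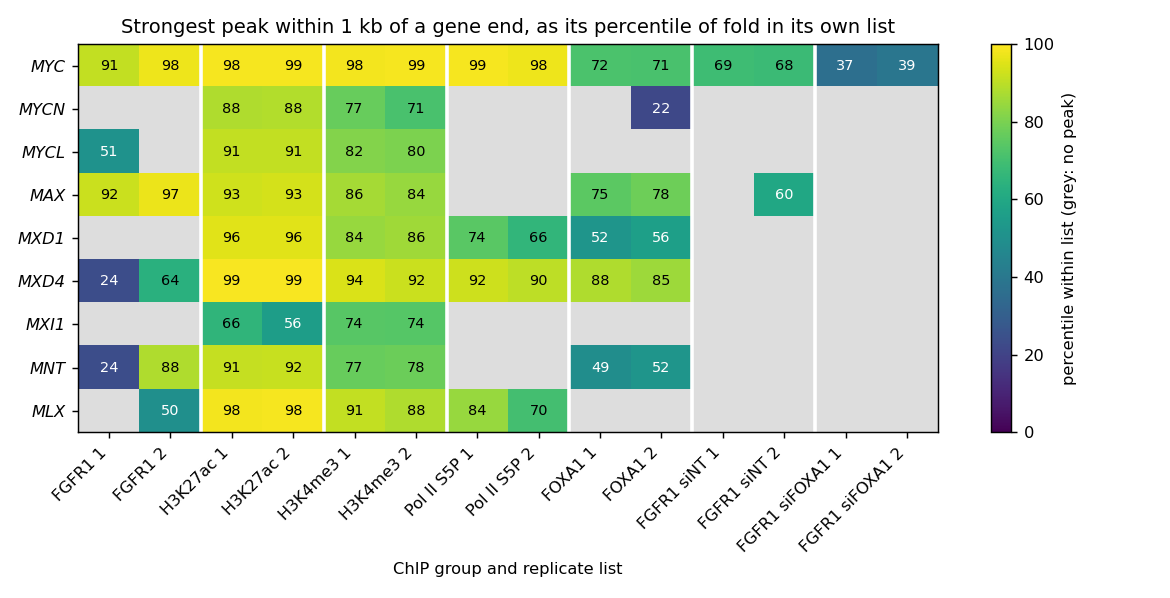
Percentile within its own list (colour and number, 0 to 100) of the strongest peak within 1 kb of either end of each gene, for the 14 lists (columns, group and replicate); grey means that no peak was listed. MYC is filled in every column, the H3K27ac and H3K4me3 columns are filled for all 9 genes, and both siFOXA1 columns are empty apart from MYC.

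The 250 bases before annotated starts were available for 8 of the 9 members, all but MYC (RefSeq, GRCh38.p14). There were 11 starts in all, because MAX has 2 listed starts and MXI1 has 3. Starts are numbered by coordinate, so the second start of MAX, a gene on the minus strand, is its outer one. They are shown for the starts on which the comparison of the repressors and MLX turns: MXD4, MNT, MLX and the third and innermost start of MXI1, which lay under FGFR1 peaks of replicate 2, and MXD1, which had Pol II S5P and FOXA1 without FGFR1. Capitals mark the E-box CACGTG, the site of MYC-MAX and MXD-MAX dimers, and each stretch is written 5′ to 3′ on the strand of the gene, ending at the base before the start.
MXD4 (chr4:2262110-2262359, minus strand): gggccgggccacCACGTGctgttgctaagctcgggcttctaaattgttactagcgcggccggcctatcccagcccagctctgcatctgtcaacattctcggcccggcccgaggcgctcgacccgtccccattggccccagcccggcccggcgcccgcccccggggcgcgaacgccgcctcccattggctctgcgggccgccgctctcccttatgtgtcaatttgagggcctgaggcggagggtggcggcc
MNT (chr17:2401061-2401310, minus strand): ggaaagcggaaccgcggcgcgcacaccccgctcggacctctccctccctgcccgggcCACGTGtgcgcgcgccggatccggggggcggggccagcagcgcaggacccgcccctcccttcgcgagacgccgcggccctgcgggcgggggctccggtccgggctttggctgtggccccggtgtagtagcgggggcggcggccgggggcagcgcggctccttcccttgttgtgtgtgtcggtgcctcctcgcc
MLX (chr17:42566850-42567099, plus strand): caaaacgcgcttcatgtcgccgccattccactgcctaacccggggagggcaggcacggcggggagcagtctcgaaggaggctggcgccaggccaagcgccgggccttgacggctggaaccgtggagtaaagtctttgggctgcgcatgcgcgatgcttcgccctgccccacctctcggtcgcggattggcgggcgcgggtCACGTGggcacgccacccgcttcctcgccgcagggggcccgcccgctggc
MXI1, inner start (chr10:110225746-110225995, plus strand): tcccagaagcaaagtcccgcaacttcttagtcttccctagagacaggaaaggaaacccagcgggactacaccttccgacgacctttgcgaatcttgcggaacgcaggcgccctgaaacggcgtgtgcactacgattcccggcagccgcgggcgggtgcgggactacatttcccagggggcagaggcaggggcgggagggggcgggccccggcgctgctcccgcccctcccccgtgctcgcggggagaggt
MXD1 (chr2:69914859-69915108, plus strand): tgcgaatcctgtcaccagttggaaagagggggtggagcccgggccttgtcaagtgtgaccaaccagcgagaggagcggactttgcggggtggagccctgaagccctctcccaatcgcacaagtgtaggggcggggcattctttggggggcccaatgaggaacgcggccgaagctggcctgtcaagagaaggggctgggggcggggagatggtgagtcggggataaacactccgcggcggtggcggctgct

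The E-box began 238 bases before the start of MXD4, 193 before that of MNT and 50 before that of MLX. It was in 3 of the 11 member windows and in 6.34% of all 35116 windows of the same length. MYCN, MYCL, MAX, MXD1 and MXI1 had none in these 250 bases. All 3 genes with the E-box had an FGFR1 peak over part or all of the window in replicate 2, of fold 6 at MXD4, 6.66 at MNT and 5.11 at MLX, and none there in replicate 1. The share of all windows under an FGFR1 peak was not counted, so no link with the E-box can be read from this. FGFR1 also lay over windows without the E-box: that of the second start of MAX in replicate 2 (fold 15.1, 96 bases), that of the third start of MXI1 in replicate 2 (5.33, 137 bases) and that of MYCL in replicate 1 (5.23, 118 bases). Among the genes with the E-box, the FGFR1 peak covered 119 of the 250 bases at MXD4 and all 250 bases at MNT and MLX. At MXD4 the covered bases were those nearest the start, so its E-box lay outside the peak.

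Other short motifs were searched on both strands of the same windows. The forkhead core TGTTTAC (2.98% of all windows) occurred once, before the second start of MXI1, and TGTTTGC (3.23%) in no member window. FOXA1 peaks of both lists covered all or part of the windows of MXD4, MXD1, the second start of MAX and the third start of MXI1. The share of all windows under FOXA1 peaks was not counted, so whether this is more than usual is not known. The GC box GGGCGG (42.6% of all windows) was in every printed window, with 4 matches each at MNT and the third start of MXI1. CCAAT (32% of all windows) was found at MXD1 and MXD4 with 2 matches each and at MLX with 1. No E-box overlapped another of these motifs. Such matches describe letters only, and no match in a window says nothing of the factor.

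MYC (chromosome 8, 127735434 to 127742951) encodes the founding member of the family and was the only one of the 9 with an FGFR1 peak at its end in all 6 FGFR1 lists. In untransfected cells its strongest FGFR1 peaks had folds of 9.33 and 16, at percentiles 90.8 and 97.6 of their lists. They rested on 40 and 71 fragments at the summit, with exact 95% Poisson intervals of 28.6 to 54.5 and 55.5 to 89.6 that cover counting error only. The summits lay 850 and 810 bp from the marked end, inside the annotated gene. No strand or start was listed for MYC, so its marked end is the annotated end with H3K4me3, called its start below. Whether the FGFR1 site lies at a promoter of MYC or beyond it was not tested. The shared region, 127735862 to 127736615, was 754 bp wide and overlapped regions of all 6 other groups.

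Replicate 2 listed 4 further FGFR1 peaks at MYC that replicate 1 did not. Their summits lay 1305 and 209 bp before the marked end and 1642 and 2449 bp inside the gene, with folds of 7.33, 5.77, 3.77 and 4.66. The replicate 1 list held the single peak. The pair of lists therefore gave 1 and 5 FGFR1 peaks within 50 kb of MYC.

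The chromatin around the FGFR1 site of MYC was among the broadest listed. A single H3K4me3 peak of 6940 and 6857 bp covered the start of the gene, wider than 99.8% and 99.7% of the peaks of its lists. Its folds were 105 and 109, with 384 and 383 summit fragments in lists where the highest summit held 400. The highest summit was also exactly 400 in FGFR1 replicate 1 and in the FOXA1, siNT and siFOXA1 lists. Whether 400 is a ceiling on the counts was not tested. H3K27ac peaks of 8558 and 8547 bp had folds of 43.1 and 48.4. Pol II S5P reached folds of 22.1 and 17.3, percentiles 98.6 and 97.6, with summits 831 and 839 bp from the marked end. FOXA1 covered the same stretch with a region 1663 bp wide, of folds 9.81 and 10.1, and a second FOXA1 region of folds 10.8 and 9.93 lay 942 to 1531 bp before the start.

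**Figure D2:**
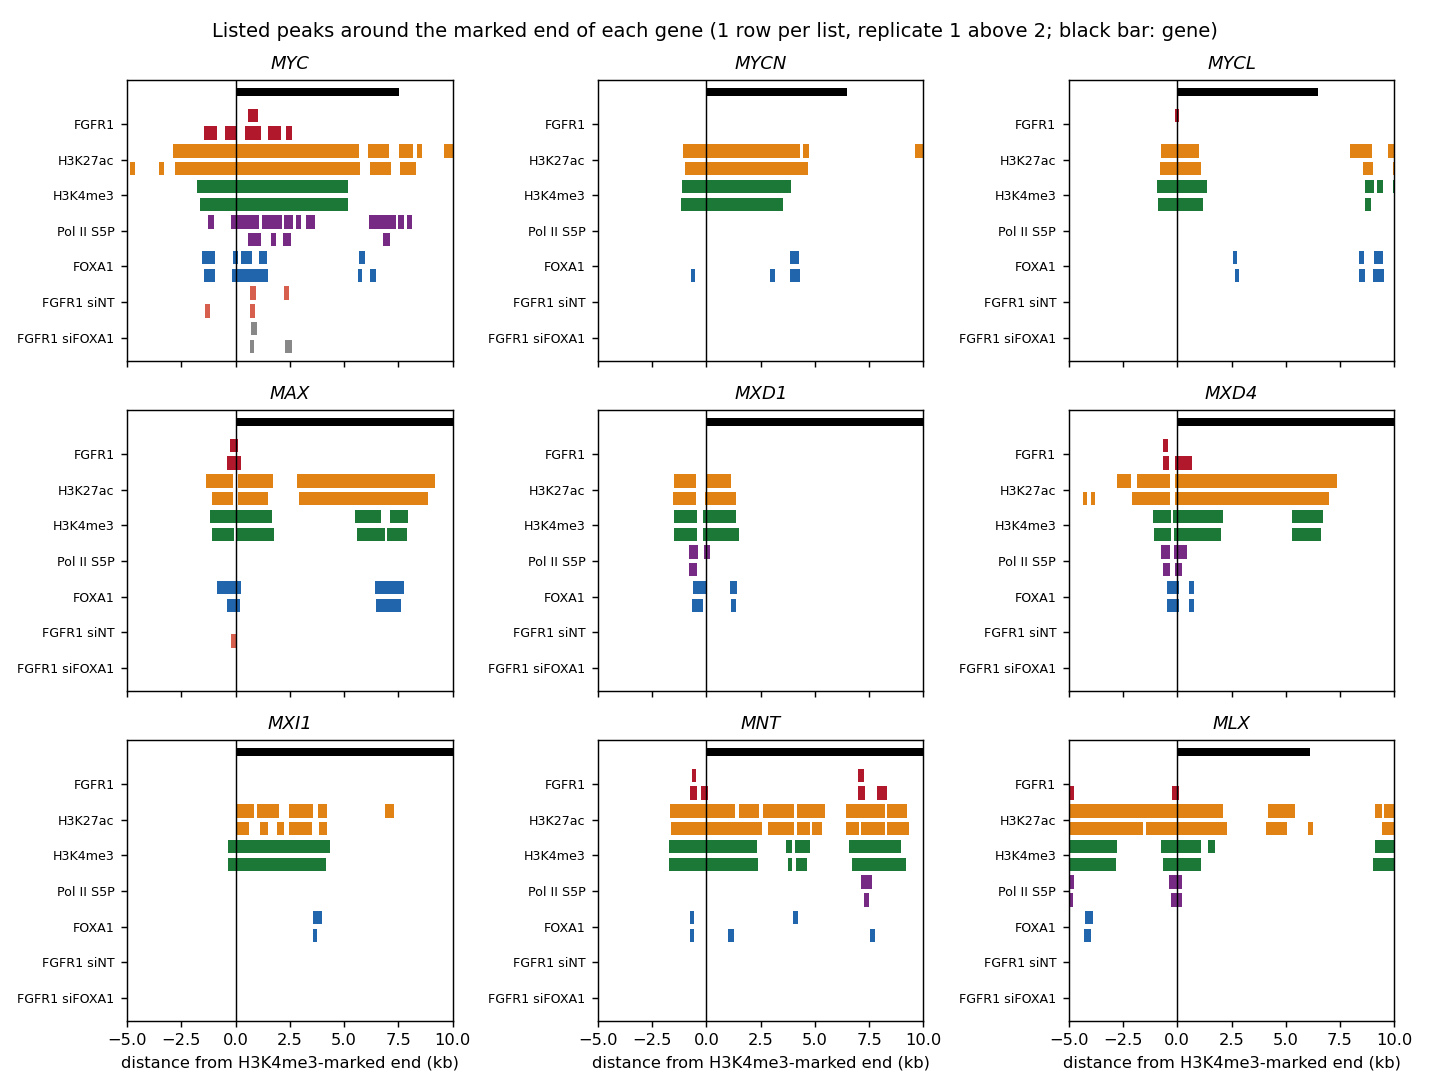
Peaks of the 14 lists (coloured bars, replicate 1 above replicate 2 in each group) from 5 kb before to 10 kb after the H3K4me3-marked end of each gene, with the gene as a black bar running to the right. MYC holds peaks of all 7 groups, while MYCN and MXI1 show only H3K27ac, H3K4me3 and FOXA1 in this stretch.

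After transfection, MYC was the only member with FGFR1 of both lists at an end, in siNT (4.84% of all genes) and in siFOXA1 (1.95% of all genes). The siNT peaks had folds of 5.34 and 5.33 with 16 summit fragments each, interval 9.15 to 26. The siFOXA1 peaks had folds of 4.5 and 4.38 with 13 fragments each, interval 6.92 to 22.2. These intervals overlapped, and the backgrounds were alike, at 2.19 fragments in both siNT lists and 2.11 and 2.2 in the siFOXA1 lists. All 4 summits lay 760 to 820 bp inside the gene, at the site seen in untransfected cells. The lists differ in length, so their percentiles are not compared.

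MYC was also the only FGFR1-bound member with a shared siNT region, 1 of 4, where 22.3% of all FGFR1 genes had one. Of all genes with siNT FGFR1 at an end, 36.4% kept a region of both siFOXA1 lists and 32.8% had no siFOXA1 peak at all. MYC, the single member with siNT FGFR1 of both lists, was among the first, and no member was among the second. The −log10 q of the 4 peaks was 5.7 in each siNT list, and 3.4 and 3.2 in the siFOXA1 lists. With a minimum of 5, MYC stayed in the siNT lists alone and counted as lost after siFOXA1.

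A second FGFR1 site inside MYC appeared in 1 list of each transfected group. Its summit lay 2372 bp from the start in siNT replicate 1, with a fold of 6.59, and 2400 bp in siFOXA1 replicate 2, with a fold of 6.88. In both lists it was stronger than the peak near the start. It matched the place of the untransfected replicate 2 peak at 2449 bp. Another peak, the strongest near MYC in siNT replicate 2, lay just outside the 1 kb window. Its summit was 1318 bp before the start, with a fold of 7.52, 23 summit fragments and a −log10 q of 12.3. Untransfected replicate 2 also had a peak there, 1305 bp before the start, while siNT replicate 1 and both siFOXA1 lists had none. The place lies in the FOXA1 region 942 to 1531 bp before the start. Within 50 kb of MYC, siNT listed 2 and 4 FGFR1 peaks and siFOXA1 4 and 2. The mean difference was 0 (exact permutation test, two-sided, p = 1, with 0.333 the smallest p that 2 against 2 libraries allow).

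**Figure D3:**
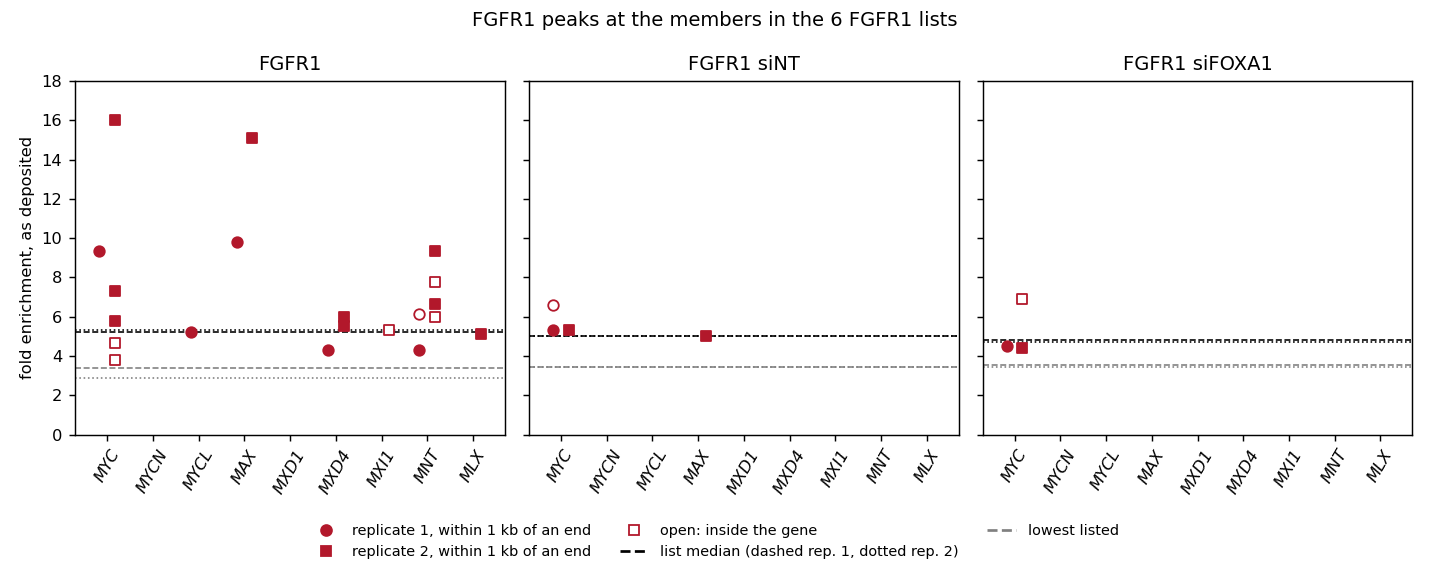
Fold enrichment as deposited of every FGFR1 peak within 1 kb of an end (filled) or inside (open) of each gene, in untransfected, siNT and siFOXA1 lists (circles replicate 1, squares replicate 2), with the list medians in black and the lowest listed folds in grey. MYC and MAX stand highest in the untransfected lists, and MYC alone has points in the siFOXA1 panel, where its 2 peaks near the start lie below the medians of 4.82 and 4.69.

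MYCN and MYCL, the paralogues best known from neuronal and neuroendocrine tumours, had promoter marks without reproducible FGFR1 or Pol II S5P. MYCN (chromosome 2, 15940550 to 15947004) had H3K4me3 of folds 77.8 and 67.2 and H3K27ac of 13.7 and 15.2 at its start. None of the 6 FGFR1 lists and neither Pol II S5P list held a peak inside MYCN or within 50 kb of it. FOXA1 had a strong region inside MYCN, 3839 to 4288 bp from the start, with folds of 24.2 and 24.7 (percentiles 90.3 and 91.5). A single weak FOXA1 peak of fold 4.12 lay near the MYCN start in replicate 2.

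MYCL (chromosome 1, 39895428 to 39901917) had an FGFR1 peak in replicate 1 only. Its fold was 5.23, with 22 summit fragments and the summit 5 bp before the marked end. The peak lay under H3K4me3 of folds 87.1 and 87.1 and H3K27ac of 18.2 and 19.6. No Pol II S5P peak lay at MYCL, and the nearest, of folds 8.9 and 5.89, sat at an end of the neighbouring gene TRIT1. FOXA1 had a weak region inside MYCL, of folds 3.34 and 3.56.

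MAX (chromosome 14, 65006101 to 65102695), the obligate partner of the MYC proteins, had FGFR1 peaks close in height to those of MYC. Their folds were 9.78 and 15.1, at percentiles 91.8 and 97.1, with 42 and 67 summit fragments (intervals 30.3 to 56.8 and 51.9 to 85.1). MAX was above MYC in replicate 1 and below it in replicate 2, and the intervals overlapped in both lists. The summits lay 70 and 8 bp before the marked end, 65102695. That end is not a listed start of MAX: these were 65102283 and 65101684, both further inside the gene. No Pol II S5P peak of either list lay at MAX or inside it.

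The FGFR1 region of MAX sat over a gap in the acetylation. H3K27ac formed a region of folds 22 and 26.4 from 102 to 1734 bp inside the gene and another of 21.3 and 17.4 from 109 to 1389 bp before it, and the FGFR1 region ran from 412 bp before the end to 257 bp inside. FOXA1 of folds 11.9 and 12.7 covered the gap as well, with summits 49 and 45 bp inside. The strongest FOXA1 region inside MAX lay 6424 to 7758 bp from the marked end and had folds of 32.3 and 27.6 (percentiles 94.4 and 93). It had no FGFR1. After transfection FGFR1 was listed at MAX only in siNT replicate 2, with a fold of 5.01, 15 fragments and a −log10 q of 4.9, and in neither siFOXA1 list. The difference of siFOXA1 minus siNT was −0.5 peaks (exact permutation test, two-sided, p = 1).

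Among the MAX-binding repressors, MXD4 and MNT had weaker FGFR1 regions, both before the gene. MXD4 (chromosome 4, 2247432 to 2262109) had a shared FGFR1 region 365 to 652 bp before its start, of folds 4.32 and 5.55. In replicate 1 the peak had 18 summit fragments, interval 10.7 to 28.4, and stood at percentile 23.5 of its list. The region coincided with the stronger of the Pol II S5P regions of MXD4, of folds 13.7 and 11.5, and touched a FOXA1 region of 21.1 and 17.4, the highest FOXA1 folds at an end of any member. H3K27ac at MXD4 was also the highest of the set at an end, with folds of 47.7 and 51.1. FGFR1 replicate 2 listed another peak of fold 6 over the start itself.

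MNT (chromosome 17, 2384073 to 2401060), which encodes a widely expressed MAX-binding repressor, had 2 shared FGFR1 regions. At the end, 446 to 753 bp before the start, the folds were 4.32 and 9.33, with 18 and 41 summit fragments. The other region lay 6984 to 7311 bp inside the gene and had folds of 6.14 and 7.77. This inner region, and not the one at the end, carried Pol II S5P (folds 4.27 and 5) and lay in an inner stretch of H3K4me3 of folds 72.4 and 68.9 and H3K27ac of 25.9 and 27.8. The H3K4me3 at the annotated end had folds of 78.4 and 82.2. FOXA1 of folds 3.13 and 4.12 overlapped the FGFR1 region at the end, and FOXA1 of 6.26 and 6.37 lay at the far end of MNT.

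In replicate 1 MYC and MAX stood apart from MXD4 and MNT, which had 18 summit fragments each. In replicate 2 the order by strongest peak at an end was MYC with 71, MAX with 67, MNT with 41 and MXD4 with 26. Neighbours in that order had overlapping intervals, while MYC (55.5 to 89.6) did not overlap MXD4 (17 to 38.1).

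MXD1 and MXI1 had no FGFR1 at an end in any list. MXD1 (chromosome 2, 69915109 to 69942945), a repressor linked to differentiation, had Pol II S5P of folds 8.68 and 7.45 with summits 635 and 606 bp before the start. It also had FOXA1 of folds 6.68 and 6.94 and H3K4me3 of 91.5 and 94.7. MXD1 thus had Pol II S5P, FOXA1 and both marks of the FGFR1-bound members MYC and MXD4, but no FGFR1 peak in its window in any of the 6 FGFR1 lists. Its strongest H3K27ac, of folds 30.7 and 33.4, lay 755 and 712 bp before the start at the summits, around the Pol II S5P region rather than inside the gene.

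MXI1 (chromosome 10, 110207605 to 110287365) had the strongest acetylation inside the gene at an inner start. H3K27ac at the outer end had folds of 5.03 and 4.36, the lowest of the 9 genes, with 20 and 17 summit fragments. The inner region, 17651 to 18878 bp into the gene, had folds of 29.9 and 27.8 and covered the whole window of the inner start printed above. Between them, 2455 to 3553 bp into the gene, H3K27ac had folds of 7.9 and 9.92 and covered part of the window of the second start. H3K4me3 was present at both. The peak over the outer end had folds of 71.8 and 74, but its summits lay 3232 and 3229 bp inside the gene. At the inner start the H3K4me3 folds were 88.8 and 88.2. FGFR1 replicate 2 listed a peak of fold 5.33 at this inner start, covering 137 of the 250 bases before it, and replicate 1 listed none. FOXA1 of folds 4.59 and 6 covered the same place, and no Pol II S5P peak lay inside MXI1.

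MLX (chromosome 17, 42567100 to 42573203) had Pol II S5P of folds 10.9 and 7.9 and H3K27ac of 41.7 and 46.9 at its start. FGFR1 was listed there in replicate 2 alone, with a fold of 5.11 and 22 summit fragments. MLX lies in a dense stretch: the same 1 kb windows also hold an end of COASY, a coenzyme A synthesis gene. FGFR1 regions of both lists lay at ends of COASY (4.55 and 8.44), of NAGLU (4.09 and 7.33) and of RETREG3 with TUBG1 (5.46 and 6.22). No FOXA1 peak lay within 1 kb of MLX.

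H3K27ac at the ends ranked the 9 genes in the same order in both lists. MXD4 had 198 and 210 summit fragments, MYC 179 and 199, and MLX 173 and 193, and the replicate 1 intervals of these neighbours overlapped (171 to 228, 154 to 207 and 148 to 201). MXD1 followed with 127 and 137, then MAX with 91 and 108, MNT with 78 and 88, MYCL with 75 and 80 and MYCN with 56 and 62, each overlapping its neighbour in replicate 1. MXI1 was last, and its interval of 12.2 to 30.9 in replicate 1 lay below that of MYCN, 42.3 to 72.7.

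Within 50 kb, FGFR1 of both untransfected lists was found at 5 of 9 members, since the neighbours of MLX were added (40.4% of all genes). H3K27ac, H3K4me3 and FOXA1 were found around all 9 (89.8%, 89.3% and 91.7% of all genes). Pol II S5P was found around 7, not MYCN and MXI1 (61.7% of all genes). MYC alone had siNT FGFR1 (16.5% of all genes) and siFOXA1 FGFR1 (7.87% of all genes) of both lists in this range. Leaving out those within 1 kb of an end, FGFR1 regions of both lists outside the genes were found for MLX only, with 3.

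The flanks of MYCN and MLX held the most H3K27ac. MLX had 21 flanking regions and MYCN 15, more than or as many as 99.2% and 95% of all genes, whose median was 4. Of the flanking H3K27ac regions of MYCN, 6 carried FOXA1 without H3K4me3, a number that 99.5% of all genes did not exceed. MLX had 4 such regions (97.1%) and MYC 2 (86.8%). Neighbouring regions of MYCN, 20427 to 21602 and 19175 to 20194 bp before the start, shared the same FOXA1 region. The highest H3K27ac fold in the flanks of MYCN, 19.4 and 23.5, was in a stretch 11843 to 18543 bp from the start that held FOXA1 of folds 22.9 and 21.7. That stretch also held H3K4me3 of folds 8.47 and 7.09 and so was not among the 6. MXD1 had 3 flanking H3K27ac regions and MXI1 had 2, both under that median.

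MYC had 12 flanking H3K27ac regions, and 1 of them was far above the rest. It spanned 127792788 to 127812158, 19371 bp, with folds of 54.8 and 57.1 (percentiles 99.7 and 99.5), higher than at the MYC start. It began 49837 bp beyond the MYC end, just inside the 50 kb limit, and holds the annotated start of the long non-coding RNA gene PVT1 (127794524 to 128101256). Most of it therefore lies past that limit. This stretch overlapped regions of FGFR1, Pol II S5P, H3K4me3 and FOXA1, but none of siNT or siFOXA1 FGFR1. The strongest FOXA1 region in the MYC flanks, of folds 16.5 and 12.9, lay 16327 to 16721 bp from the start.

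**Figure D4:**
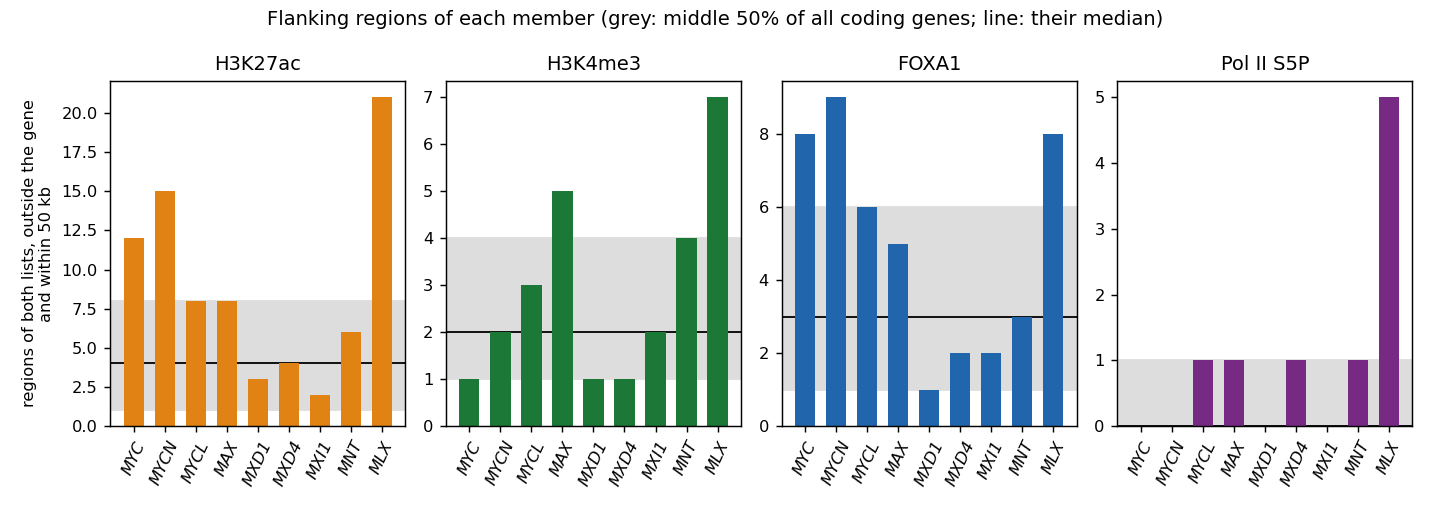
Number of regions of both lists outside each gene and within 50 kb (bars), for H3K27ac, H3K4me3, FOXA1 and Pol II S5P, with the median (line) and the middle 50% (grey) of all protein-coding genes. Regions within 1 kb of an end are left out. MLX is highest for H3K27ac (21), H3K4me3 (7) and Pol II S5P (5), and MYCN is highest for FOXA1 (9).

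The surroundings of MYC were rich in FGFR1 peaks after transfection. In the 1 Mb around MYC, siNT listed 14 and 13 peaks and siFOXA1 11 and 12. Among all genes the medians were 1 and 0, and 96.1% and 95.4% of genes had as many or fewer in the siNT lists and 96.9% and 97.3% in the siFOXA1 lists. In untransfected lists the window held 4 and 22 peaks, at or above 69% and 86.3% of genes. The other 8 members had 0 to 6 peaks in their windows after siNT and 0 or 1 after siFOXA1. Since the background of each list is constant along the genome, the number of copies of the region and the amount of FGFR1 on each copy cannot be told apart here, which bears on the MYC peaks in all 6 lists.

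**Figure D5:**
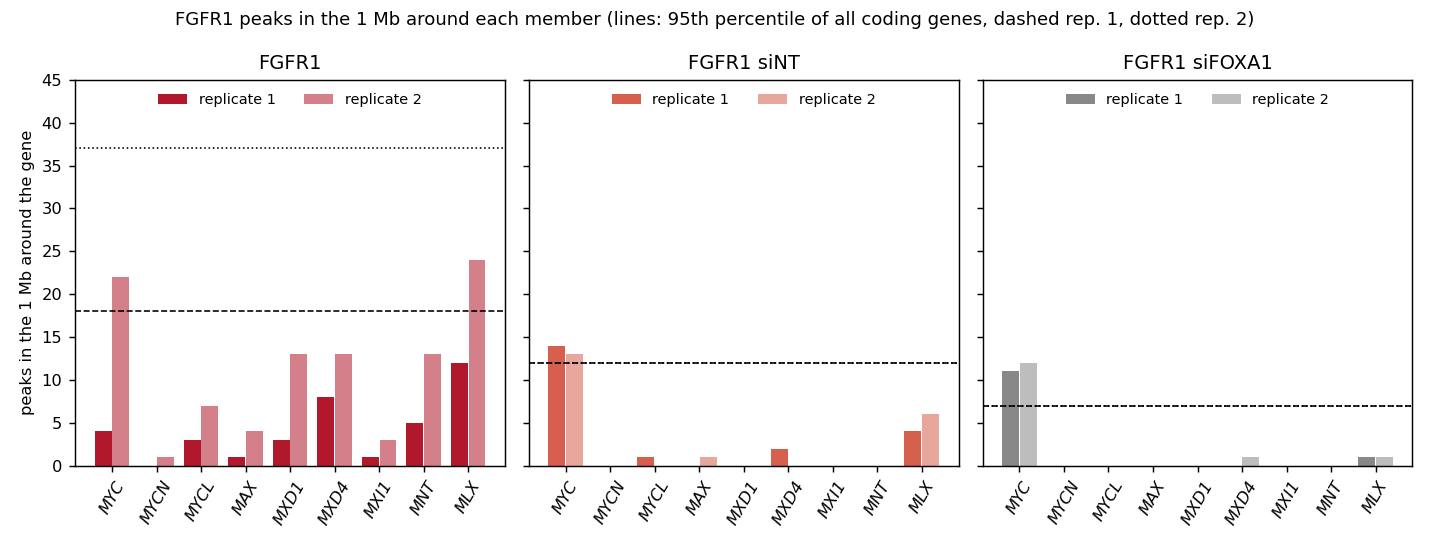
FGFR1 peaks in the 1 Mb around each gene in the untransfected, siNT and siFOXA1 lists (dark bars replicate 1, light bars replicate 2), with the 95th percentile of all protein-coding genes as lines. MYC exceeds the lines in all 4 transfected lists (12 after siNT, 7 after siFOXA1), and no member exceeds that of its own list in untransfected cells (18 and 37).

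Other genes of the network were read from lists of 50 genes, beside the shares over all genes given above: FGFR1 at 19.9% of all genes, at 29.9% of those with H3K4me3 and at 47.4% of those with Pol II S5P. Of 4 further MAX or MLX partners, FGFR1 of both lists was at an end of 1, MXD3, with folds of 6.6 and 9.1. MLXIP had a replicate 2 peak only (5.77), and MGA had none. Of 16 MYC cofactors, 10 had FGFR1, led by the acetyltransferase KAT5 (8.19 and 10.2), the ATPase RUVBL2 (7.73 and 11.3) and the chromatin remodelling subunit BPTF (7.28 and 9.55). The co-repressors SIN3B and SIN3A, which the MXD proteins recruit, were both among the 10, SIN3A by a merged region whose replicate 1 peak itself lay outside the 1 kb. All 50 genes had H3K27ac and H3K4me3 at an end (67.5% and 66.6% of all genes).

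Of 10 genes that modify MYC or its turnover, 4 had FGFR1 of both lists. PIM1, a serine/threonine kinase that phosphorylates MYC, had folds of 17.7 and 21.5, above those of MYC in both lists, and it also had siNT and siFOXA1 regions of both lists. The ubiquitin ligase gene FBXW7 (5.91 and 12.9) and STUB1 (4.55 and 7.33) came next. Of 20 textbook MYC target genes, 13 had FGFR1, led by the transferrin receptor TFRC (10 and 16.4), the nucleolar protein NPM1 (9.55 and 10.7) and the lactate dehydrogenase LDHA (8.19 and 12). Besides PIM1, the network genes with siFOXA1 FGFR1 of both lists were TFRC and CDK4, 3 of 50 in all (1.95% of all genes). TFRC and CDK4 had no siNT region of both lists at an end. Such siNT regions were at 2 cofactors, 2 turnover genes, 2 targets and 0 of the 4 partners (4.84% of all genes). Pol II S5P was at an end of 2 of the 4 partners, 12 of the 16 cofactors, all 10 turnover genes and 19 of the 20 targets (38.9% of all genes).

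The genes most like each FGFR1-bound member were taken by the distance between their percentiles of the strongest end peak over the 14 lists, as a description. For MYC they were BRF2 (20 percentile points), EIF4EBP1 (35.8) and HGH1 (36.9), where the median over all genes was 232. All 3 lie on chromosome 8, as MYC does, and BRF2 (37843268 to 37849861) and EIF4EBP1 (38030534 to 38060365) lie on its other arm. Folds of the groups other than Pol II S5P carry no correction for copy number, and whether copy number adds to this likeness was not tested. For MXD4 the nearest were RBM22, RAVER1 and HMGB2 at 15.1, 15.2 and 15.9 points. For MNT they were CMIP (24.3), BORCS6 (27.7) and GPD2 (29.5). MAX had no gene as close, with PGBD2 at 51.8, ZNF335 at 59.7 and ZBTB2 at 63.9 points. Its distances include an end peak at percentile 59.6 in siNT replicate 2 that siNT replicate 1 did not list.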

How the data were processed

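Peak lists of 14 ChIP-seq libraries from CAMA1 cells were used as deposited, 1 list per library. The submitters' processing notes name hg38 as the build. They also name MACS2, Bowtie2, Picard and SAMtools, without versions. The deposited rows hold a fold enrichment (a linear ratio), the significance as −log10 p and as −log10 q, and a summit offset, all made by the authors. For the groups other than Pol II S5P, every deposited fold was (summit fragments + 1) over (background + 1) for whole fragments (tolerance 0.02), with backgrounds of 2.11 to 4.33 fragments. Summit fragments were recovered from this, with exact 95% Poisson intervals. They and the background stand in for depth, and no read total was used. The Pol II S5P values were scaled and were left as folds.

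Rows outside chromosomes 1 to 22 and X were left out, 0.0227% to 2.74% of a list. A region of both lists is a merged stretch holding rows of each with an overlap of at least 1 bp. Genes are those of RefSeq (GRCh38.p14), which gives starts and ends here without exons, introns or UTRs. Gene ends were widened by 1 kb both ways, and flanks reached 50 kb beyond the gene. Counting was tested on simulated data, where 200 of 200 planted gene ends were recovered and 0 genes were found in error. FGFR1 peaks near a member after siNT and siFOXA1 were compared by an exact permutation test. All 9 members are named; from each of the other gene lists, the 3 with the highest mean FGFR1 percentile and each with siFOXA1 FGFR1 of both lists are named, and the 3 nearest genes by pattern. Genes at an end with a flanking region, SIN3A, SIN3B and PVT1 were named after their values were seen. The members and lists were chosen with earlier results of these data known. Python 3.11.15, numpy 2.4.6, pandas 2.3.3 and matplotlib 3.10.9 were used.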

Additional observations from a re-analysis of the deposited data

How the results depend on the processing

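Of 126 alternative values over 23 results, 109 kept their direction, and the counts of genes among them stayed within 1.5 times the reported count. With a −log10 q of at least 5, FGFR1 was at an end of 2 members in place of 4, siFOXA1 FGFR1 at 0 both at an end and within 50 kb, FGFR1 shared by siNT and siFOXA1 at 0, and 1 member (MYC) counted as lost. The difference in FGFR1 peaks near MYC was then −2 (exact permutation test, p = 0.333) in place of 0, and that near MAX was 0. With windows of 500 bp, siNT and siFOXA1 FGFR1 were at an end of 0 members each, since the MYC summits lay further inside. Leaving out 1 library in turn gave 1 to 2 members with siNT FGFR1 at an end and 1 to 2 within 50 kb, the second being MAX without siNT replicate 1. Without that library 1 member (MAX) was lost, and the other omissions gave 0. The difference near MYC ranged from −1 to 1 over the 4 omissions, and that near MAX, −0.5 in the report, was −1 without siNT replicate 1 and 0 without siNT replicate 2. With the replicate number as a replicate block the difference near MYC was 0. The labels do not say what a shared number means, and 2 pairs cannot show it.

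The MYC peaks of the transfected lists rest on 13 to 16 summit fragments where the lowest listed peak had 10, and whether a site missing from one of these lists was unbound or below detection was not tested. Fold enrichments of the groups other than Pol II S5P carry no correction for copy number, and the scaling of Pol II S5P was not established. No input was used, and the level of FOXA1 after siFOXA1 was not analysed here.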
